A study of Mus musculus with 281 samples.

Results

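The cells described here are 45 single cells labelled Ly6C-GMP, divided by whether the transcript of Cebpe was found in them; the members of each side were thus chosen by the measured Cebpe level. Granulocyte-monocyte progenitors (GMPs) are bone marrow cells that give rise to neutrophils and monocytes. Of the 281 cells in the whole series, 25 Ly6C-GMP cells had Cebpe at 1 TPM or more (TPM is a gene's share of a cell's transcripts, corrected for gene length) and are called cells with Cebpe, and the other 20 are called cells without Cebpe. The cells came from C57BL/6 mice, an inbred strain, with no transgene, mutation or treatment named, and the RNA of each was sequenced by SMART-seq2, a method that reads whole transcripts of single cells. The sort gate took cells with c-Kit, CD34 and high CD16/32, and without lineage markers, Sca-1 or Ly6C. Levels are also set beside 47 CMP cells (the same gate with low CD16/32), the Ly6C+GMP cells (the same gate as Ly6C-GMP but Ly6C-positive) and 22 cells labelled proneu, 21 of them with the Ly6C+GMP gate and 1 with no gate given. Ages, sexes and the number of mice were not given in the labels.

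C/EBPε, the protein made from Cebpe, is a transcription factor of the granulocyte lineage. Without it, neutrophils do not finish their maturation and lack secondary granules, which hold lactoferrin (Ltf), lipocalin-2 (Lcn2) and related proteins. Primary granules are made earlier, at the promyelocyte stage, and hold neutrophil elastase (Elane), myeloperoxidase (Mpo), cathepsin G (Ctsg) and proteinase 3 (Prtn3). GMPs that turn to the monocyte side depend on the transcription factor IRF8 and take up the growth factor receptor CSF1R.

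Each deposited sample is 1 cell and no animal is named, so each side counts as 1 sample. No test between the sides was possible, and every difference below is a description of these 45 cells. A difference is the mean of log2(TPM + 1) over the cells with Cebpe minus that over the cells without it. This scale understates differences of low genes. It can enlarge those of high genes that are listed at or near 0 TPM in some cells. Detection of a gene in a cell means at least 1 TPM. It was measured when its mean reached 1 TPM on either side, and it is called higher or lower once the sides differ by 1 log2 unit. A value of 0 in this table may be a failed estimate, since mt-Co3, a mitochondrial gene that every cell uses, was listed at 0 in 41 of 45 cells. A level or minimum of 0 TPM below therefore means only that the gene was listed at 0 in a cell.

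Cebpe values chose the sides. The gene lies on chr14:54710360-54712174, minus strand, in GRCm38. All 20 cells without Cebpe were listed at 0. In the 25 cells with Cebpe the level ran from 1.67 to 1408 TPM, with a median of 124 TPM. The lowest cell stood apart from the rest, the next being at 23.2 and 30.1 TPM, and no cell lay between 0 and 1 TPM. Cebpe was detected in 55.6% of Ly6C-GMP cells (exact Clopper-Pearson 95% interval 40 to 70.4%, counting error only) and in 57.1% of Ly6C+GMP cells (47.1 to 66.8%). It was detected in 86.4% of proneu cells (65.1 to 97.1%) and in 1 of 47 CMP cells, at 1.29 TPM.

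**Figure D1:**
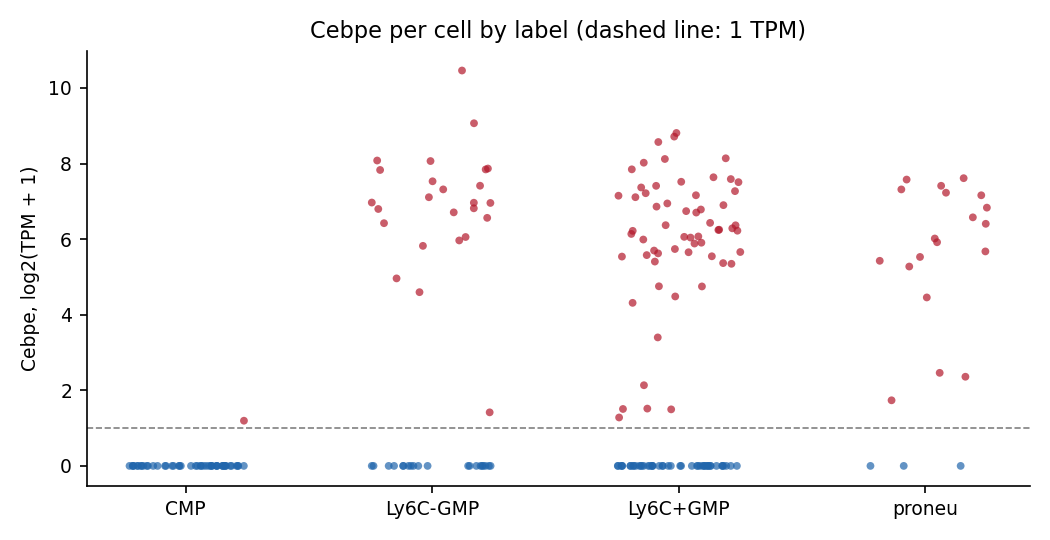
Cebpe level by label. Each point is 1 cell on a log2(TPM + 1) axis, red at 1 TPM or more (dashed line) and blue below; the Ly6C-GMP cells are at 0 (20 cells) or between 1.67 and 1408 TPM (25 cells), and 46 of 47 CMP cells are at 0.

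The label was checked against its markers. Elane, Mpo, Ctsg and Prtn3 were detected in 45 of 45 cells, Ms4a3 in 43, Cd34 in 44, Kit in 40 and Fcgr3 in 41. Ly6c2, which encodes a form of the surface protein used in the gate, was detected in 43 of 45 cells at a median of 1592 TPM, although the gate took Ly6C-negative cells. Fcer1a, Epx, Pf4, Dntt, Cd79a, Cd3e and Siglech were listed at 0 in every one of the 45 cells. Other markers of other lineages were found in some of them: Cpa3, of mast cells, in 26 of 45 cells, Meis1, of stem cells, in 20, Mcpt8, of basophils, in 18, Car2, of red cells, in 17 and Gata2 in 15. The number of genes detected per cell was 3306 at the lowest, 4514 at the median and 5237 at the highest in cells with Cebpe, and 2610, 4420 and 5398 in cells without. The reference genes Actb, B2m, Eef1a1 and Gapdh differed by -0.18, -0.13, -0.17 and 0.18 log2 units.

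The cell titles had the prefix RMB (18 cells with and 12 without Cebpe) or RHP (7 with and 8 without). The labels give this prefix no meaning, and differences within each prefix are printed as a check. At least 1 of the erythroid and megakaryocyte markers Gata1, Klf1, Car1 and Pf4 was detected in 3 of 25 cells with and 10 of 20 cells without Cebpe. Only 1 marker was detected in each of those 3 cells and in 7 of those 10, and Pf4 in no cell. Some detections lay near the limit. Car1 had a mean of 0.44 TPM in cells without Cebpe once its highest cell was left out. Detection of such a marker does not make a cell erythroid. The part of these 13 cells in the differences is given by leaving them out, which keeps 22 cells with and 10 without. The cell with 1.67 TPM of Cebpe, of prefix RMB, had Klf1 at 969.91 TPM, a red-cell transcription factor. It also had Cpa3 at 2377 TPM and Ms4a2 at 3582 TPM, genes of mast cells and basophils, and only 35.6 TPM of Elane and 8.24 TPM of Prtn3.

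Of 11834 measured genes, 1091 passed this limit as higher in the cells with Cebpe (9.22%) and 806 were lower (6.81%), with a median difference of 0.02. The members of each gene group are read against these percentages. Of the higher genes, 414 passed 1 log2 unit within both prefixes and 124 had the opposite sign in 1 of them. Of the lower genes, 272 and 114 did so. Differences of single Ly6C-GMP genes named below keep their sign in both prefixes unless stated.

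Among 16 measured primary granule genes, 8 were higher and 1 was lower, with a median difference of 0.99. Elane (chr10:79886247-79888215, plus strand), the elastase gene, was detected in every cell. Its lowest, median and highest levels were 35.6, 19985 and 47568 TPM in cells with Cebpe and 23.2, 8849 and 32255 TPM in cells without. The ranges overlapped nearly whole, and the difference was 1.78 log2 units on means of 13.70 ± 2.03 (SD, 25 cells) and 11.92 ± 3.10 (SD, 20 cells). Without the cell at 1.67 TPM of Cebpe it was 2.13, and without the 13 cells with erythroid markers it was 1.90. The lowest cells without Cebpe, at 23.2 and 32.9 TPM of Elane, lay far below the next, at 240 TPM. The difference is smaller when those lowest cells are left out.

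Ms4a3 (chr19:11629496-11640851, minus strand) encodes a membrane protein of granulocyte-monocyte progenitors. It was detected in 25 of 25 cells with Cebpe, at 4.73, 2974 and 6122 TPM for the lowest, median and highest, and in 18 of 20 cells without, at 0, 667 and 3651 TPM. The difference was 2.43 log2 units, 2.35 within RMB and 2.65 within RHP. The medians of the sides lay far apart while the highest cell without Cebpe exceeded the median of the cells with it.

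Prss57, which encodes a further serine protease of the primary granule, differed by 3.34 log2 units. It was detected in 25 of 25 and 13 of 20 cells, with medians of 397 and 106 TPM. Cst7, encoding the protease inhibitor cystatin F, differed by 3.37, with detection in the same numbers of cells and medians of 742 and 306 TPM. In each of these genes 7 cells without Cebpe, and no cell with it, lay below 1 TPM. The lowest levels in cells with Cebpe were near that limit, 1.15 TPM for Prss57 and 3.44 TPM for Cst7. Detection in 13 of 20 cells is a share of 65% (40.8 to 84.6%), against 100% (86.3 to 100%) on the other side.

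Nkg7, a granule membrane protein gene, was detected in all cells, with medians of 2946 and 862 TPM and a difference of 2.16. Gstm1, a glutathione transferase gene, had medians of 1470 and 434 TPM and a difference of 2.75. Srgn encodes serglycin, the proteoglycan on which granule proteins are packed. It was detected in all cells, with medians of 2909 and 1443 TPM and a difference of 1.05. The eighth higher member was Ap3s1 (1.06), a subunit of a vesicle adaptor, and the lower member was Ctsc (-1.40), whose protein activates granule proteases.

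Mpo, Ctsg and Prtn3 differed by less than 1 log2 unit. Mpo had medians of 30438 and 23841 TPM and a difference of 0.94. Ctsg had medians of 4967 and 4360 TPM and a difference of 0.66. Prtn3 had medians of 4148 and 3930 TPM and a difference of 0.29, with -0.25 within RMB and 1.22 within RHP. Prtn3 (chr10:79874476-79883174) and Prss57 (chr10:79781474-79790961) lie in the same stretch of chromosome 10 as Elane, so these neighbouring protease genes showed differences of 0.29, 3.34 and 1.78. Serpinb1a, an inhibitor of these proteases, differed by 0.94 over all cells but by -0.45 within RMB and 3.06 within RHP.

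**Figure D2:**
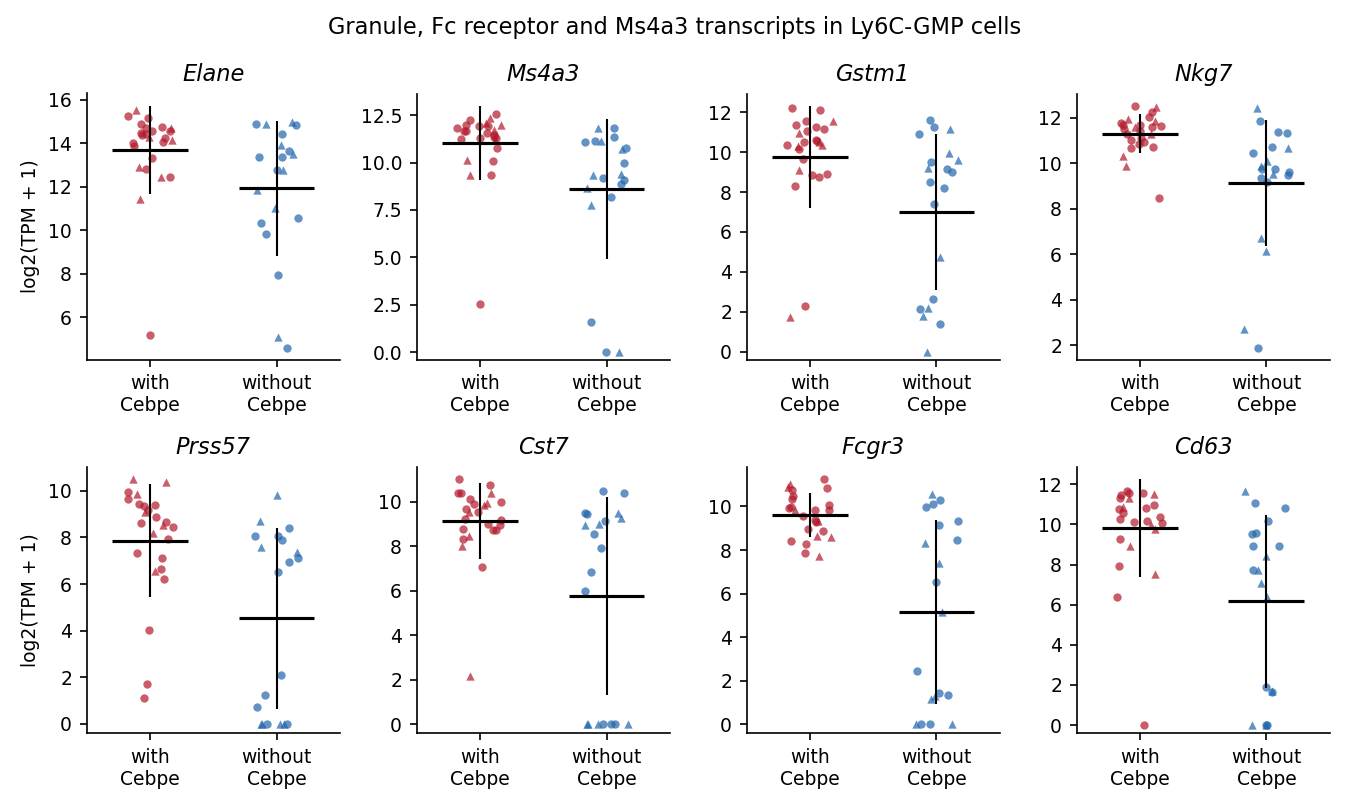
Levels of genes of primary granules and of Fcgr3 and Cd63 in single Ly6C-GMP cells on a log2(TPM + 1) axis; red, 25 cells with Cebpe, blue, 20 cells without, circles RMB, triangles RHP, bars mean ± SD over cells. Elane is present in all cells on both sides, while Prss57 and Cst7 are below 1 TPM only in cells without Cebpe. The lowest cells with Cebpe lie near that limit for both genes.

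A mean over the list in each cell gives the same order. The mean log2(TPM + 1) of the primary granule genes was 6.31 at the lowest, 9.79 at the median and 10.90 at the highest in cells with Cebpe, and 2.54, 8.15 and 10.08 in cells without. Of the cells with Cebpe, 6 lay above every cell without, and 2 cells without lay below every cell with. The lowest cell with Cebpe on this scale was the one at 1.67 TPM. The 2 cells without Cebpe that lay below every cell with it were high in secondary and late granule genes. Their means over that list were 7.04 and 8.62, against a median of 1.64 for the cells without Cebpe. Over the alternatives on the log2(TPM + pseudocount) scale the median difference of the primary granule list ran from 0.72 to 1.35.

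Secondary and late granule genes, some of which need C/EBPε in mature neutrophils, did not share one direction. Their median was -0.23, with 0.09 within RMB and -1.04 within RHP, and of 21 measured members 2 were higher and 3 lower. Ngp, encoding a secondary granule protein, was detected in 11 of 25 and 5 of 20 cells, with highest values of 5582 and 40544 TPM. Camp, the cathelicidin gene, and Ltf were each detected in 2 cells on each side. Lcn2 was detected in 3 of 25 and 6 of 20 cells, with a difference of -0.99. Cells at 1000 TPM of Ngp or more numbered only 1 with and 2 without Cebpe, too few to relate high levels of these genes to Cebpe. The cells without Cebpe with the highest means over this list, 7.04 and 8.62, had the lowest primary granule means, 2.54 and 5.56. The higher members were Pglyrp1, a peptidoglycan-binding granule protein gene (2.56, detected in 18 of 25 and 9 of 20 cells), and Ltb4r1, the leukotriene B4 receptor gene (2.47, in 20 of 25 and 11 of 20 cells). The lower ones were Lyz2 (lysozyme, -2.24), Fcnb (ficolin-B, -1.45) and S100a9 (-1.02). Lyz2 had medians of 117 and 563 TPM, and its difference was 0.04 without the 13 cells with erythroid markers.

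Promoter sequence was looked at because C/EBP proteins share a DNA pattern, TTGCNNAA, whose other strand reads TTNNGCAA. The 2 forms overlap where the inner bases are GC. In the 250 bases before the start of the RefSeq gene models (GRCm38.p6), 9.56% of all 32851 windows held it on either strand. Of the 841 genes higher with Cebpe that had a window, 8.68% held it, as did 10% of the 610 lower genes and 9.23% of all 8191 measured ones. A window was found for 85 of the 112 genes looked up. The windows of Elane, Cst7, Mpo, Prtn3, Ctsg, Irf8, F13a1 and Ccr2 held no match, which says only that these letters are not in that window. Those of Camp, Lyz2, Pglyrp1 and Ltb4r1, of the secondary and late granule list, held no match either. Stretches of 80 bases are printed 5′ to 3′ on the strand of the gene, with the pattern in capitals. They are for the gene with the largest difference (Fcgr3), for 3 secondary granule genes with a match, and for Ms4a3, in which no match was found. The 3 did not follow Cebpe here, and they do not stand for their list.
Fcgr3 (chr1:171059404-171059483, minus strand): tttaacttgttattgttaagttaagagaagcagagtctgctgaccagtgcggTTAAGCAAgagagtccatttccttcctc
Ngp (chr9:110419634-110419713, plus strand): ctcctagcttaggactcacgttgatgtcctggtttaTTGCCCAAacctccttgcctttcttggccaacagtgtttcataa
Ltf (chr9:111019181-111019260, plus strand): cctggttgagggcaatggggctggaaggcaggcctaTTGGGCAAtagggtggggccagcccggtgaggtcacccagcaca
Lcn2 (chr2:32387910-32387989, minus strand): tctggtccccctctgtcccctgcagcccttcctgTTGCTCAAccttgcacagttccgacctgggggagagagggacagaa
Ms4a3 (chr19:11640852-11640931, minus strand): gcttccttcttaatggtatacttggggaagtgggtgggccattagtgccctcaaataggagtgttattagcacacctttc
A match is a description of these letters and not a site of binding. The Fcgr3 match starts 28 bases before the start used here and 37 before the other of its 2 starts, and those printed for Ngp, Ltf and Lcn2 start 138, 75 and 216 bases before theirs. The Ngp window held a further match, 11 bases before the gene model. Gene positions in this report come from another annotation, GENCODE M21, whose starts can differ from those of RefSeq. The printed stretches of Fcgr3 and Lcn2 lie inside the genes of that annotation (Lcn2 at chr2:32384633-32388252), not before them.

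Fcgr3 (chr1:171051174-171064935, minus strand), which encodes the CD16 receptor for immunoglobulin G used in the gate, had the largest difference of the genes named by rule, 4.45 log2 units. Its level was 209, 902 and 2431 TPM at the lowest, median and highest in cells with Cebpe, and 0, 63.7 and 1528 TPM in cells without, where it was detected in 16 of 20. Every cell with Cebpe lay above 200 TPM, and the cells without ran from 0 to within the range of those with it. The difference was 3.90 within RMB, 5.20 within RHP and 5.27 without the 13 cells with erythroid markers. As a log2 ratio of mean TPM it was much smaller, 1.44, on means of 961 and 354 TPM. Fcgr2b, which encodes CD32, differed by -0.51. Reads of the Fc receptor genes are partly shared out by estimate, so their values are less certain.

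Fcer1g and Tyrobp encode small signalling subunits that pair with activating receptors, CD16 among the partners of the first. Both were lower with Cebpe. Fcer1g was detected in 15 of 25 and 19 of 20 cells, with medians of 25.3 and 217 TPM and a difference of -3.10. Tyrobp was detected in 18 of 25 cells at 0, 154 and 1638 TPM, and in 20 of 20 cells without Cebpe at 123, 404 and 1872 TPM. Its difference was -3.30, -2.38 within RMB and -5.13 within RHP. The receptor gene Fcgr3 and its subunit gene Fcer1g thus differed in opposite directions.

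Other genes among the 10 with the largest positive difference (with a mean of at least 50 TPM and detection in at least 50% of cells on the higher side) were of mixed function. Cd63, a tetraspanin of granule and endosome membranes, was detected in 24 of 25 and 16 of 20 cells, with medians of 1311 and 212 TPM and a difference of 3.64. Rgcc, a cell cycle regulator gene, was detected in 23 of 25 and 15 of 20 cells, with medians of 747 and 105.3 TPM and a difference of 3.76. Gyg, encoding glycogenin, the primer of glycogen synthesis, differed by 4.17, with medians of 305 and 6.14 TPM. Dtnbp1 (3.40), Mrps18b (3.40, a mitochondrial ribosome subunit) and Dstn (3.32, an actin-severing protein) were among them, as were Prss57, Cst7 and Fcgr3. All 10 passed 1 log2 unit within each prefix.

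The 10 largest negative differences were taken, like the positive ones, among genes with a mean of at least 50 TPM and detection in at least 50% of cells on the higher side, a limit that Ccr2 (below) misses. Of these genes, Fcer1g, Tyrobp, Ms4a6c and F13a1 are genes of monocytes and other myeloid cells. Orai3, a calcium channel subunit gene, was detected in 6 of 25 and 13 of 20 cells, with highest values of 315 and 495 TPM and a difference of -3.30. Mfge8, whose protein bridges phagocytes and dying cells, was detected in 2 of 25 and 10 of 20 cells, with a difference of -2.95. Cnih1 (-2.96), Bcl2l12 (-2.91), Ifngr2 (-3.09, a chain of the interferon-gamma receptor) and Zfp386 (-2.99) completed them. All 10 passed 1 log2 unit within RMB and 9 did so within RHP, the exception being Zfp386 (-0.05).

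The monocyte list pointed the other way from the primary granule list. Its median was -1.52, 12 of 18 measured members being lower and 1 higher, with -1.15 within RMB and -1.91 within RHP. Irf8 (chr8:120736358-120756694), the transcription factor gene of monocytes and dendritic cells, was detected in 7 of 25 cells with Cebpe (28%, 12.1 to 49.4%) and in 12 of 20 without (60%, 36.1 to 80.9%). Its lowest, median and highest levels were 0, 0 and 205 TPM and 0, 111 and 759 TPM. The difference was -2.79, -1.32 within RMB and -5.58 within RHP, and -1.74 without the 13 cells with erythroid markers.

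Ccr2 (chr9:124101950-124113557), the chemokine receptor gene of monocytes leaving the marrow, was detected in 1 of 25 cells with Cebpe, at 2.89 TPM. It was detected in 9 of 20 cells without (45%, 23.1 to 68.5%), at up to 923 TPM, and the difference was -3.42. Csf1r, the growth factor receptor gene, was detected in 2 of 25 (8%, 0.98 to 26%) and 10 of 20 cells (50%, 27.2 to 72.8%), with a difference of -2.22. One of the cells with Cebpe, at 492 TPM, had the highest Csf1r level of all 45. F13a1 (chr13:36867178-37050244), encoding a coagulation factor subunit made by monocytes, was detected in 5 of 25 and 10 of 20 cells, with highest values of 394 and 1237 TPM and a difference of -3.11. Its share listed above 0 TPM was 68% and 75%, so the shares of F13a1 depend on the detection limit. Whether values below 1 TPM reflect transcript in those cells was not tested.

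Ms4a6c, a membrane protein gene of monocytes and macrophages, was detected in 12 of 25 and 15 of 20 cells, with a difference of -2.96. It shares reads with near-identical Ms4a6 genes by estimate. Ly86, encoding the MD-1 partner of a Toll-like receptor homologue, was detected in 8 cells on each side, with a difference of -2.32. Slpi (a protease inhibitor, -1.72), Psap (-1.56), Ms4a6b (-1.49), Ctss (cathepsin S, -1.35) and Cx3cr1 were also lower, the last being listed at 0 in the 25 cells with Cebpe and detected in 3 of 20 without. Cd68, a lysosomal membrane protein gene, was the higher member (1.05). Ly6c2 differed by 0.57, with 1.23 within RMB and -0.85 within RHP.

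**Figure D3:**
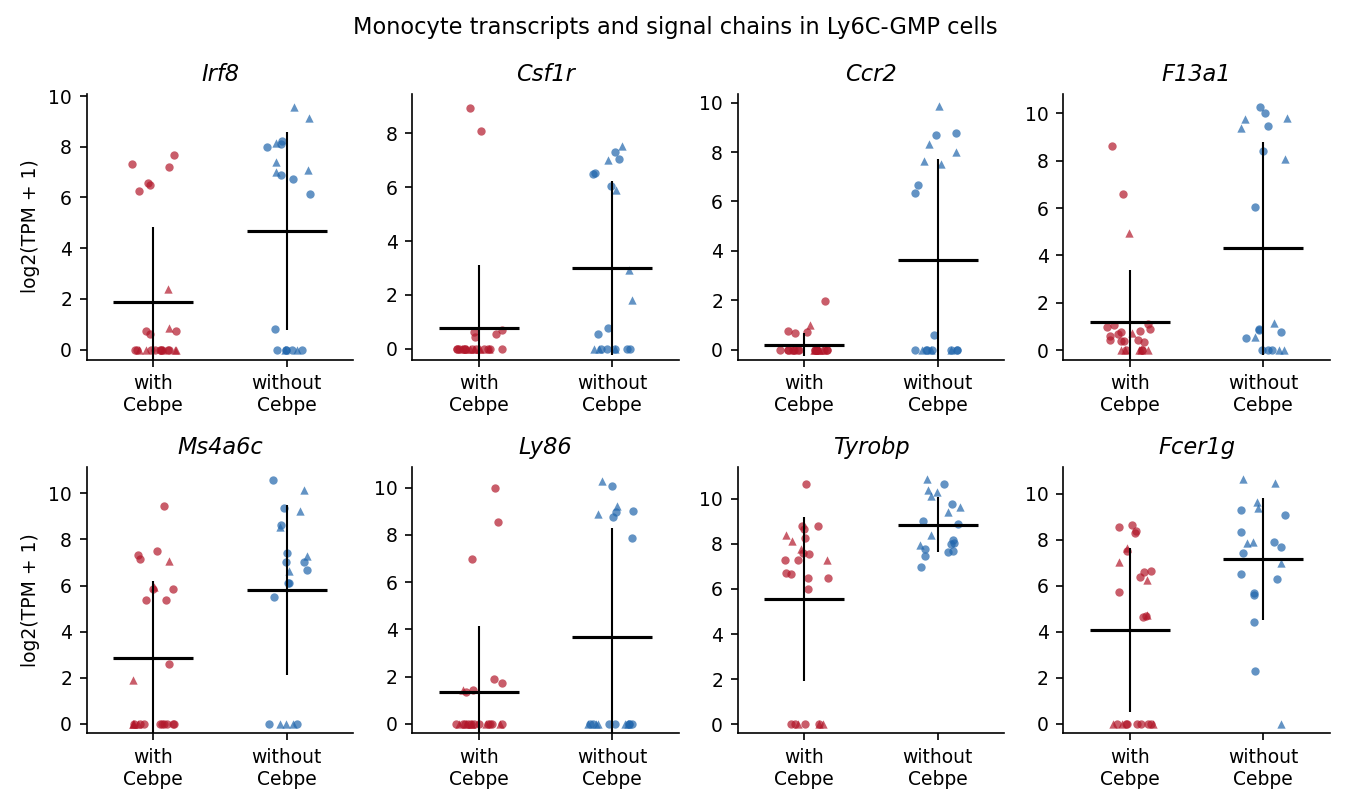
Levels of monocyte-associated genes and of Tyrobp and Fcer1g in single Ly6C-GMP cells on a log2(TPM + 1) axis; red, 25 cells with Cebpe, blue, 20 cells without, circles RMB, triangles RHP, bars mean ± SD over cells. Ccr2 reaches 923 TPM in cells without Cebpe and 2.89 TPM in cells with it, while both sides overlap for every gene shown.

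Detection of several monocyte genes was also counted per cell. Such counts follow in part from the share of each gene alone. Whether the genes met in the same cells more often than those shares give was not tested. Irf8, Csf1r, Ccr2 and F13a1 were chosen for this count after their values were seen. None of the 4 was detected in 15 of 25 cells with Cebpe and in 4 of 20 cells without. At least 2 were detected in 3 of 25 and 13 of 20 cells, and all 4 in 0 and 4 cells. Prss57, Cst7 and Fcgr3, chosen in the same way, were all detected in 25 of 25 cells with Cebpe and in 8 of 20 without. Of those 8 cells, 5 also had at least 2 of the 4 monocyte genes. The 3 cells with Cebpe that had at least 2 monocyte genes kept all 3 of the others, so genes of both sets occurred in the same single cells.

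**Figure D4:**
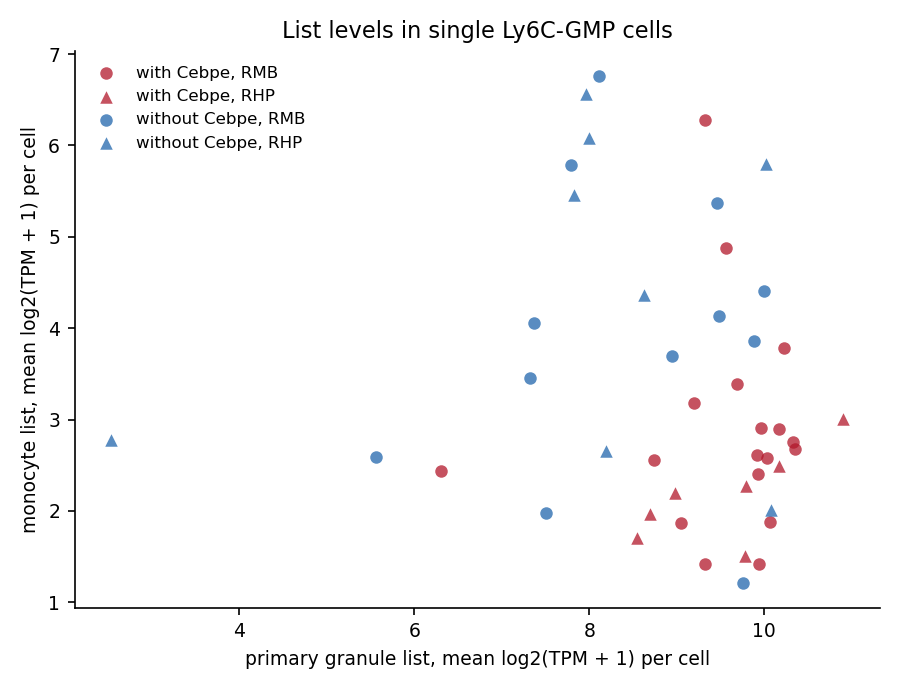
Mean log2(TPM + 1) of the primary granule list (horizontal axis) against that of the monocyte list (vertical axis) in each of 45 Ly6C-GMP cells; red, with Cebpe, blue, without, circles RMB, triangles RHP. The medians are 9.79 and 8.15 for primary granule genes and 2.55 and 4.10 for monocyte genes, and the clouds overlap.

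The mean of the monocyte list in a cell was 1.42 at the lowest, 2.55 at the median and 6.28 at the highest with Cebpe, and 1.22, 4.10 and 6.76 without. The cells without Cebpe were the more spread of the sides, 2 of them lying above every cell with Cebpe and 1 below. Leaving out the 13 cells with erythroid markers gave a median difference of -1.30 for the monocyte list and 1.00 for the primary granule list.

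Most regulators of the neutrophil lineage differed by less than 1 log2 unit. The median of the 13 measured members of the neutrophil regulator list was 0.27, with 3 of them higher and 2 lower. Gfi1, a repressor needed for neutrophil formation, was detected in 6 of 25 cells with Cebpe (24%, 9.36 to 45.1%) and in 1 of 20 without (5%, 0.13 to 24.9%), with a difference of 1.00. Etv6, a repressor of the ETS family, differed by 2.10 and was detected in 17 of 25 and 9 of 20 cells. Per3, a clock gene that was placed on this list, differed by 1.47. Cebpa, the C/EBP gene that acts at the entry to the GMP stage, was detected in 5 of 25 and 9 of 20 cells, with a difference of -1.25. Spi1, encoding PU.1, was detected in 22 of 25 and 20 of 20 cells, with a difference of -1.19 that was -0.36 within RMB and -3.24 within RHP. Cebpd differed by -0.52, and Cebpb was detected in 1 cell with and in no cell without Cebpe.

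Receptors for growth factors and cytokines were lower more often than higher. The median of 10 measured members was -0.50, with 1 higher and 3 lower (Csf1r, Il6ra and Flt3). Il6ra, the interleukin-6 receptor gene, was detected in 7 of 25 and 13 of 20 cells, with a difference of -2.50. Flt3, a receptor gene of early and lymphoid progenitors, was detected in 1 of 25 and 6 of 20 cells, with a difference of -1.35. Csf3r, the receptor gene for the granulocyte growth factor G-CSF, was detected in 17 of 25 and 12 of 20 cells and differed by 0.25. Ifngr1, the higher member, encodes a chain of the interferon-gamma receptor. It had medians of 644 and 275 TPM and a difference of 2.52.

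Genes of protein secretion were higher with Cebpe in Ly6C-GMP cells more often than lower. The endoplasmic reticulum and secretion list had a median of 0.61, and 7 of its 28 members were higher and 0 lower. Sec61a1, the channel through which secreted proteins enter, had medians of 336 and 208 TPM and a difference of 1.48. Ostc, a subunit of the enzyme that adds sugar chains, differed by 2.08, with medians of 589 and 263 TPM. The translocon-associated genes Ssr4 (1.48), Ssr2 (1.30) and Ssr3 (1.12) and the chaperone genes Dnajc3 (1.30) and Hsp90b1 (1.26) were the others. The median was 0.39 within RMB and 0.66 within RHP, and it was 0.25 without the 13 cells with erythroid markers. The lowest means over this list in single cells without Cebpe were 2.48 and 4.92, against a median of 8.04 on that side. They belonged to the cells without Cebpe with the highest secondary and late granule means.

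The erythroid, basophil and stem cell marker lists differed less than the monocyte list. The erythroid and megakaryocyte list had 12 measured members, 0 higher and 0 lower, with a median of -0.20 (0.06 within RMB and -0.80 within RHP). Members went both ways in detection. Klf1 was detected in 1 of 25 and 6 of 20 cells and Car1 in 0 of 25 and 5 of 20. Apoe was detected in 15 of 25 and 8 of 20 cells, Gp9 in 3 and 0 and Itga2b in 3 and 1. The basophil and mast cell list had a median of 0.51 (3 of 10 members higher, 0 lower), -0.15 within RMB and 1.2 within RHP. Hdc, the histamine-forming enzyme gene, was detected in 24 of 25 and 13 of 20 cells, with medians of 447 and 133 TPM and a difference of 2.76. Cpa3, a mast cell protease gene, differed by 1.33 over all cells, but by -0.61 within RMB and 4.33 within RHP. The median of the stem and multipotent progenitor list was -0.38, 1 of its 19 members being higher and 1 lower, and Cd34 had medians of 317 and 571 TPM (difference -0.83). The part of these markers in the granule and monocyte differences was not tested beyond the values given without the marked cells.

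**Figure D5:**
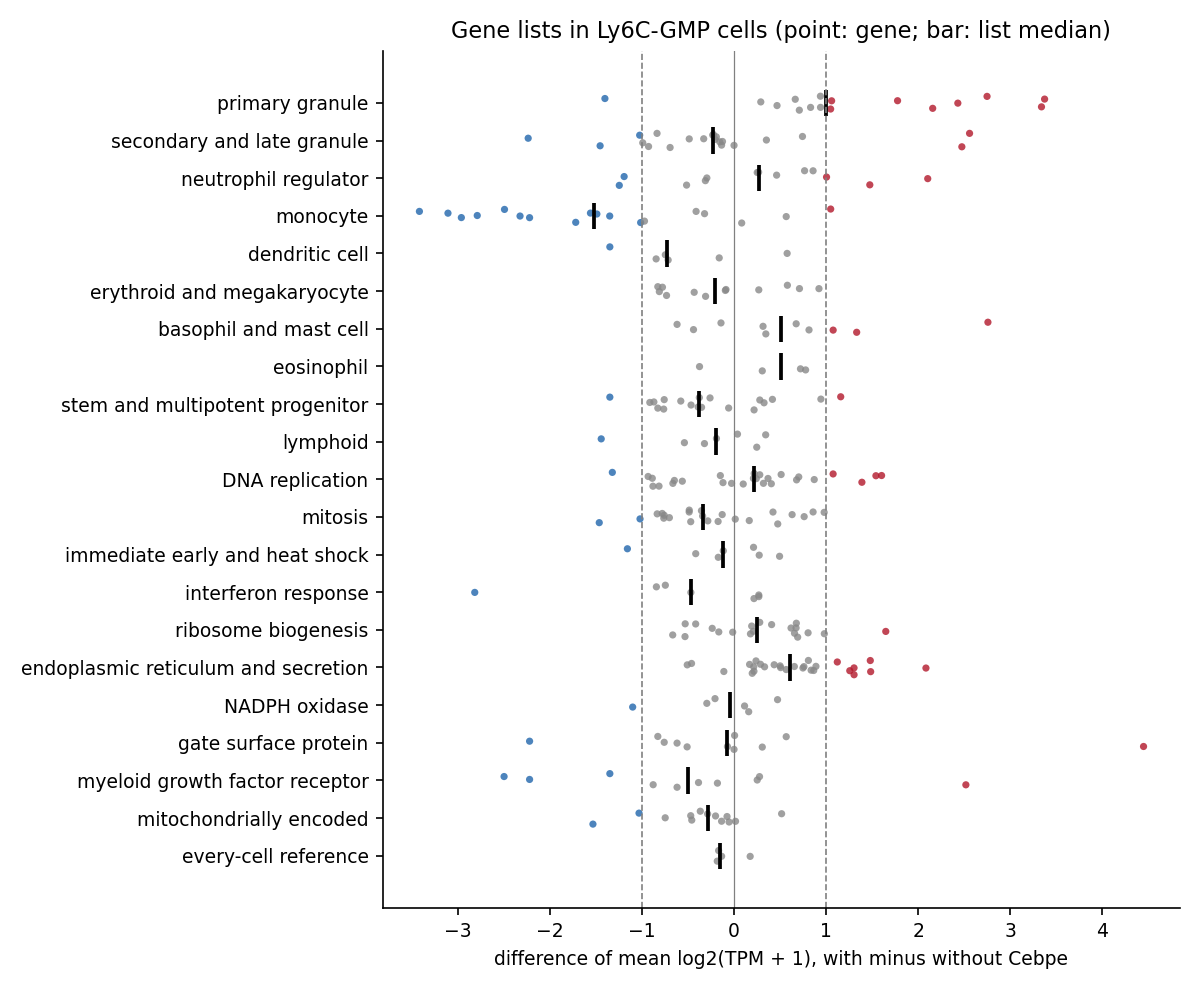
Differences of the measured members of each gene list (points, log2 units, with minus without Cebpe; red and blue past the dashed lines at 1 and -1, grey between them) and the list median (black bar); the median is 0.99 for primary granule, 0.61 for endoplasmic reticulum and secretion and -1.52 for monocyte genes, against 0.02 over all measured genes.

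The same split was then made in Ly6C+GMP cells, which the rule did not use. Of these, 60 had Cebpe at 1 TPM or more and 45 did not. Of 12140 measured genes, 451 were higher with Cebpe (3.71%) and 385 lower (3.17%), with more cells on each side than in Ly6C-GMP. The monocyte list had a median of -1.22 there (11 of 20 members lower, 0 higher), and the primary granule list one of 0.69 (3 of 16 higher, 1 lower). Other lists took other values than in Ly6C-GMP. The secretion list had a median of -0.02, with 1 of 28 members higher and 0 lower, and Ostc differed by -0.03, Sec61a1 by 0.18 and Ssr4 by 0.11. Of 18 secondary and late granule genes, 6 were higher and 0 lower, and their median was 0.26. Whether the differences of the 2 labels differ from each other was not tested.

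Of the 10 genes with the largest positive difference in Ly6C-GMP, 9 had the same sign in Ly6C+GMP and 4 passed 1 log2 unit, namely Cd63 (3.24), Rgcc (2.19), Cst7 (1.48) and Prss57 (1.32). Fcgr3 differed by 0.57 there and was detected in 60 of 60 and 45 of 45 cells, and Gyg differed by 0.23. Elane and Ms4a3 differed by 0.86 and 0.92. Of the 10 with the largest negative difference, 7 had the same sign and 5 passed 1 log2 unit, among them Ms4a6c (-3.58) and F13a1 (-3.27). Irf8 (-4.08), Ly86 (-3.72), Ccr2 (-2.99) and Csf1r (-2.20) were lower in Ly6C+GMP cells with Cebpe as well. Spi1 had the opposite sign (0.77), as had Vav1 (1.27, against -2.68 in Ly6C-GMP), a signalling protein gene chosen after its values were seen. Gfi1 (1.88), Pglyrp1 (3.47) and Ltb4r1 (3.75) kept the sign they had in Ly6C-GMP.

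Medians were also set among the other labels, with Ly6C+GMP split by Cebpe in the same way. The median of Elane was 35.99 TPM in CMP cells, 8849 and 19985 TPM in Ly6C-GMP cells without and with Cebpe, 19396 and 34731 TPM in Ly6C+GMP cells without and with it, and 43018 TPM in proneu cells. That of Ms4a3 was 3.88, 667, 2974, 2065, 3773 and 5274 TPM in the same order, and that of Fcgr3 was 1.39, 63.7, 902, 904, 1262 and 1236 TPM. For these 3 genes the Ly6C-GMP cells without Cebpe had the lowest median after CMP. Cd63 was ordered otherwise, with 6.08, 212, 1311, 74.3, 748 and 1718 TPM, and so was Nkg7, with 561, 862, 2946, 1016, 2639 and 3334 TPM. For both, the Ly6C-GMP cells with Cebpe had a higher median than the Ly6C+GMP cells on either side.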

How the data were processed

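The authors deposited 1 table of TPM, which is scaled to the length of each transcript and to a fixed total per cell, with 43280 gene symbols and 281 cells; every column matched a sample title, and 0 columns had no sample. RSEM 1.2.19 and the build GRCm38 were used, per the submitters' processing notes; which aligner, annotation and filters is not given in the sources used here. Read depth is unknown in TPM, there are no molecular identifiers, and the kit does not mark strand, so overlapping genes cannot be separated. Doublets were not called.

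Differences of mean log2(TPM + 1), shares and list medians were computed from the deposited values with Python 3.11.15, pandas 2.3.3, numpy 2.4.6 and scipy 1.17.1, and the computation was tested on simulated data. Positions are GRCm38 (GENCODE M21), counted from 1. The members and the 21 gene lists (3 listed symbols were not in the table) were chosen with earlier results of these data known. Named genes were Elane and Ms4a3; the 10 with the largest difference each way, with a mean of at least 50 TPM and detection in at least 50% of cells on the higher side and mean TPM differing the same way, leaving out predicted and ribosomal protein genes; and up to 3 members per list with at least 5 TPM. From the 77 so named, those described were picked for their function, some are not reported here, and further genes were named after their values were seen. Lists not described in the report had these medians (higher and lower members): dendritic cell -0.73 (0 and 1 of 6), eosinophil 0.51 (0 and 0 of 4), lymphoid -0.19 (0 and 1 of 7; 0.33 within RMB, -0.47 within RHP), immediate early and heat shock -0.12 (0 and 1 of 7; 0.05 within RHP), interferon response -0.47 (0 and 1 of 7), NADPH oxidase -0.05 (0 and 1 of 6), gate surface protein -0.07 (1 and 1 of 11), mitochondrially encoded -0.29 (0 and 2 of 13; 0.17 within RHP) and every-cell reference -0.15 (0 and 0 of 4).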

Additional observations from a re-analysis of the deposited data

How the results depend on the processing

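No paired analysis was possible because the labels give no replicate numbers and each side is 1 sample. The alternatives were the ratio of means, a pseudocount of 10 or 0.1 TPM, all genes without a minimum level, 2 rescalings, 1 title prefix, other Cebpe limits, other detection limits, only cells with 4000 detected genes (17 with, 14 without), no cells with Ngp at 1000 TPM and, added after the data were seen, no cells with erythroid markers and no cell between 1 and 10 TPM of Cebpe. The primary granule median stayed above 0 and the monocyte median below 0 in each. The counts of genes depend on them. The count of higher genes was 252 with a pseudocount of 10 TPM, 2022 with 0.1 TPM, 1861 by ratio of means, 2573 within RHP and 1655 without cells with erythroid markers. The count of lower genes was 167, 1636, 1898, 1723 and 1241 in the same order, 1427 within RMB and 1235 in cells with at least 4000 genes. The median of secondary and late granule genes was -2.52 and that of eosinophil genes 2.37 by ratio of means, and that of growth factor receptors -1.68 within RHP. At 5 TPM, Fcgr3 was detected in 55% of cells without and Ccr2 in 0% of cells with Cebpe; above 0 TPM, Hdc was found in 85% of cells without, and F13a1 in 68% with and 75% without. Among named genes that differed by 1 log2 unit or more over all cells, signs reversed for Lyz2 (0.044), Aurka (0.14) and mt-Co3 (0.0013) without cells with erythroid markers, Cpa3 (-0.61 within RMB, -0.068 with at least 4000 genes), Muc13 (-0.71 with at least 4000 genes), Ppp1r15a (0.045) and mt-Co3 (0.0021) within RHP, and Ncf4 (0.36 by ratio of means). Apart from fewer cells in the subsets, the cause was not tested. Genes with smaller differences could turn too: Birc5 was -0.51 and Ddx21 -0.42 within RMB, and Bst2 0.71 within RHP.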

Other observations

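The chains of the interferon-gamma receptor differed in opposite directions in Ly6C-GMP cells. Ifngr1 was detected in 25 of 25 cells with Cebpe and 18 of 20 without (difference 2.52), while Ifngr2 was detected in 8 of 25 and 17 of 20 (difference -3.09, -3.56 within RMB and -2.17 within RHP). In Ly6C+GMP cells split the same way the differences were 0.79 and 0.46. Ifnar2, a chain of the type I interferon receptor, differed by -2.72 in Ly6C-GMP and -1.32 in Ly6C+GMP. H2-DMa and H2-DMb1, which load peptides on MHC class II molecules, were lower with Cebpe by the same measure (-2.77 and -2.59). H2-DMa had medians of 45.6 and 194 TPM, and 404 TPM in CMP cells. Cfp (properdin, -2.81) and Lat2 (a signalling adaptor, -2.87) were also lower. Ifnar2, H2-DMa, H2-DMb1, Cfp and Lat2 were chosen after their values were seen.

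Cell cycle genes showed no shared direction. Of 27 DNA replication genes, 4 were higher (Rpa2, Gins2, Mcm7 and Cdt1, the last at -1.35 within RHP) and 1 lower (Tk1), with a median of 0.22. Of 23 mitosis genes, 0 were higher and 2 lower (Nusap1 and Aurka), with a median of -0.34 that was -0.73 within RMB and 0.64 within RHP. Ccnb1 differed by -2.31 within RMB and 3.01 within RHP, and Cdk1 by -1.86 and 3.52; both were chosen after their values were seen. Of 20 ribosome biogenesis genes, 1 (Bop1, 1.65) was higher, with a median of 0.24 that was -0.06 within RMB and 1.13 within RHP. Of the 4 measured eosinophil genes, Prg2 was detected in 2 of 25 and 0 of 20 cells, Prg3 in 4 and 1, Ear2 in 0 and 1 and Siglecf in 9 and 5.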
